A study of Mus musculus with 8 samples.

Results

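The genes described here encode the proteins of the cytoplasmic ribosome. They were the rows whose symbol begins with Rpl or Rps and a digit, together with Rpsa, Rplp0, Rplp1 and Rplp2, without the S6 kinases, the pseudogene symbols with -ps, and symbols that end in l1 or rt. This choice gave 84 genes of 24421. Of these, 31 encode proteins of the small subunit, 46 encode proteins of the large subunit, and 6 are tissue-restricted or duplicated copies (paralogs). The last 1, Rps19bp1, is named for binding Rps19 and is not itself a ribosomal protein.

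The RNA came from osteoblastic cells digested from the skull (calvaria) of newborn C57BL/6 mice and cultured as bulk populations. Wild type (WT) cells and cells of mice that lack Def6 (Def6-/-) were sequenced on day 0 and on day 12 of culture in an osteogenic medium that held ascorbic acid and β-glycerophosphate. Each of the 4 groups had 2 libraries, which the study describes as biological replicates. The study used WT littermates as controls. The labels do not say how many animals gave a culture or which libraries came from the same litter.

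A ribosome reads mRNA on its small subunit and joins amino acids on its large subunit, and the stalk proteins of the large subunit recruit the factors that drive elongation. Apart from the stalk proteins Rplp1 and Rplp2, the proteins are needed in equal numbers, and free ones are degraded. In mammals their mRNAs begin with a C followed by a run of pyrimidines, the 5′ terminal oligopyrimidine (TOP) tract, through which mTOR signaling controls how well they are translated. The genes have many processed pseudogenes, so short reads from a ribosomal mRNA often match several places in the genome. In bone, translation has to supply large amounts of collagen and other matrix proteins.

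The bases around the annotated start were read from the RefSeq promoters of GRCm38.p6 for 5 members with different roles. They show cases where a run of pyrimidines was found at that start and where it was not. Each window holds 30 bases before the start and 30 bases from it onward, on the strand of the gene. Capitals mark the run of C and T that begins with C within 5 bases of the start, where it is at least 5 bases long. The windows were chr7:45128716-45128775 on the minus strand for Rpl13a, chr4:86857338-86857397 on the minus strand for Rps6, chr11:114668550-114668609 on the plus strand for Rpl38, chr17:24720033-24720092 on the plus strand for Rps2 and chr5:115559437-115559496 on the plus strand for Rplp0.
Rpl13a: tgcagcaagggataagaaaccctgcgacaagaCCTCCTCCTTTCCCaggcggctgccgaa
Rps6: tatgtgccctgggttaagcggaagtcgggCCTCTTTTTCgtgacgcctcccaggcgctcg
Rpl38: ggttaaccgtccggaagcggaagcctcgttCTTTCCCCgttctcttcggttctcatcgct
Rps2: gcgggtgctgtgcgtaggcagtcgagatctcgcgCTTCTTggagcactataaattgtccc
Rplp0: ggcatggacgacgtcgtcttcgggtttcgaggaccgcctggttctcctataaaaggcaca
The run was 14 bases long in Rpl13a, 10 in Rps6, 8 in Rpl38 and 6 in Rps2, while Rplp0 had only 2 at the annotated start. The windows of Rps2 and Rplp0 also hold the letters TATAAA after the annotated start. Whether the mRNAs begin at the annotated starts was not tested.

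Of the 77 members of the subunits, 57 had an entry among these promoters, which extend from 250 bases before to 50 bases after each start. A run of at least 5 pyrimidines stood at the start of 47.4% of the 57 genes and of 21.2% of 27025 genes with a promoter, and the median run was 3 bases in both, so most members did not hold the tract at the annotated start. A run of at least 8 stood at the start of 35.1% of the 57 genes, against 5.17% of all genes. The letters CCGGAAG, read on both strands, were held by 42.1% of the members and 9.93% of all genes. GGGCGG was held by 61.4% and 38.2%, AAGATGG by 15.8% and 7.28%, and TATAAA by 10.5% and 15.7%. These are matches of letters and not binding sites.

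The libraries held between 2414856 and 3482837 reads on genes, which were 28.8% to 35.3% of their reads, and all reads of the members were recovered as whole numbers. Def6 had 112 to 186 reads in the WT libraries and 0 to 2 in the Def6-/- libraries. The osteoblast markers Col1a1, Col1a2 and the rest of a list of 12 summed to between 36838 and 135062 normalized CPM (reads per 1000000 reads on genes, with TMM factors), and 5 T and B cell markers had no read.

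Shared sequence was counted over the annotated mRNAs of GENCODE M21. In the median ribosomal protein gene, 37.8% of the stretches of 50 bases were found in no other annotated gene, and 10 other genes held at least 1 of the rest. The largest number was 123 other genes, for Rpl7a of the large subunit. Rps2, at chr17:24718121-24721927, shared stretches with 71 other genes, of which 69 carried a pseudogene-like or predicted symbol. The following stretches are exon sequence of GRCm38, shown because the reads of Rps2, Rpl21 and Rpl26 are described further on. Those called shared lie at chr17:24721246-24721295 (plus strand, exon 3 of Rps2), chr5:146834994-146835043 (plus strand, exon 4 of Rpl21) and chr11:68902353-68902402 (plus strand, exon 2 of Rpl26), and the unique one at chr17:24720286-24720335 (plus strand, exon 1 of Rps2).
Rps2, also in 33 other genes: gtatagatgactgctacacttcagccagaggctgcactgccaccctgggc
Rps2, in no other gene: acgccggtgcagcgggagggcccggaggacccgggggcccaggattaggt
Rpl21, also in 33 other genes: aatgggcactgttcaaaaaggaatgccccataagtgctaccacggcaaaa
Rpl26, also in 6 other genes: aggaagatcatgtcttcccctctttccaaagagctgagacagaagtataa

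Levels per length spread widely among the subunit genes. They are given as means over the 7 libraries without WT day 0 replicate 1, which is described further on. Rplp1, a stalk protein, had the highest mean level at 1438 normalized CPM per kb of mRNA, followed by Rps14 at 995, Rpl8 at 898 and Rpl13a at 867. The median of the 73 subunit genes that passed the filter on low values was 194 CPM per kb. Rpl21 was the lowest of the members tested, at 6.16 CPM per kb. Across the 77 genes the level per kb and the share of unique stretches had a Spearman correlation of 0.34, or 0.40 for stretches of 100 bases. This is a description over genes of the same libraries. Genes with over 90% unique stretches had a median of 601 CPM per kb (n = 4, range 86.3 to 898). Those with at most 10% had 111 (n = 4, range 2.84 to 176). Of the groups between, the 44 genes with over 10% to 50% had 186 (0 to 1438). The 25 genes with over 50% to 90% had 209 (1.74 to 995), so the ranges of the groups overlapped.

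**Figure D1:**
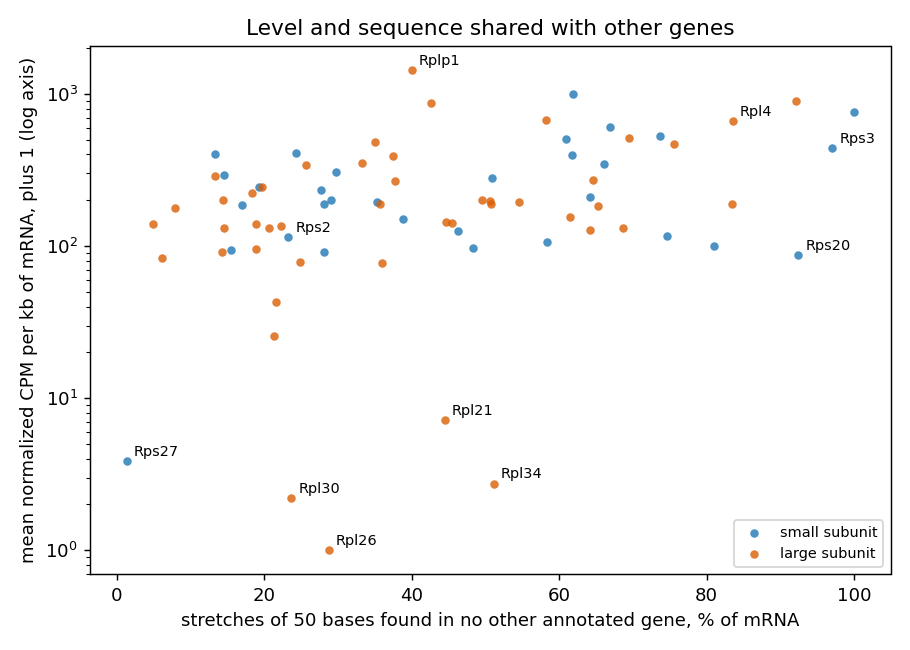
Level of 77 subunit genes (normalized CPM per kb of mRNA, mean of the 7 libraries without WT day 0 replicate 1, plus 1, log axis) against the share of stretches of 50 bases found in no other annotated gene (percent). The median of the 73 genes that passed the filter is 194 CPM per kb, and Rpl26, Rpl30, Rpl34, Rps27 and Rpl21 lie far under the rest.

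The filter on low values, which asked that the deposited CPM averaged 1 or more in some group, kept 78 members and 12348 genes in all. Of the 6 members it left out, Rpl3l, which is made in striated muscle, and Rpl10l, a testis copy, had no read in the 8 libraries. Rpl26, a core protein of the large subunit, also had no read in any library. Rpl30 had 18 reads, Rpl34 21 and Rps27 24, summed over the 8 libraries. These are core proteins of every ribosome, so their counts were not read as levels of the mRNA.

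The first result is a library and not a group. WT day 0 replicate 1 gave 4.63% of its gene reads to the members, and WT day 0 replicate 2 gave 1.81%. The share was 1.47% and 1.36% in the WT day 12 libraries, 2.30% and 1.91% in the Def6-/- day 0 libraries, and 1.57% and 1.36% in the Def6-/- day 12 libraries. The first value stands alone, and the other 7 libraries fall between 1.36% and 2.30%.

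All 78 members were higher in WT day 0 replicate 1 than in replicate 2, by a median of 1.48 on the log2(CPM + 1) scale, with a range of 0.62 to 2.33. The same median was 0.05 in WT day 12, 0.28 in Def6-/- day 0 and 0.22 in Def6-/- day 12, and over all genes it was 0.04 in WT day 0. The gap was widest in Rpl41 (2.33), Rpl36a (2.27), Rpl37a (2.22) and Rps21 (2.20), and it was 0.62 in Rpl29 and 0.80 in Rpl10. The balance of the subunits moved as well. The large subunit had 1.28 times the reads of the small subunit in that library and 1.42 to 1.51 times in the other 7.

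The same library differed from its replicate in genes outside the ribosome, by length. Other genes with mRNAs up to 1 kb were higher by a median of 0.53 log2, those of 1 to 2 kb by 0.36, those of 2 to 4 kb differed by -0.05, and those over 4 kb by -0.55. In the other 3 groups these medians lay between -0.10 and 0.06. The median mRNA of a subunit gene was 751 bases long, with a range of 271 to 3706. That length is of 1 transcript per gene, while the classes of other genes use the median over coding transcripts. The median gap of the members of all lengths, 1.48, exceeded the 0.53 of other genes up to 1 kb. The library also had the largest share of reads aligned more than once, 34.9% against 21.4% to 26.6% in the other 7. Its proliferation markers summed to 358 normalized CPM and those of replicate 2 to 798. The part of mRNA length, repeated alignment and cell growth in the members' level was not tested. In bulk RNA, fewer cells of a type and less RNA per cell cannot be told apart. Each result that rests on this library is given below with and without it.

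**Figure D2:**
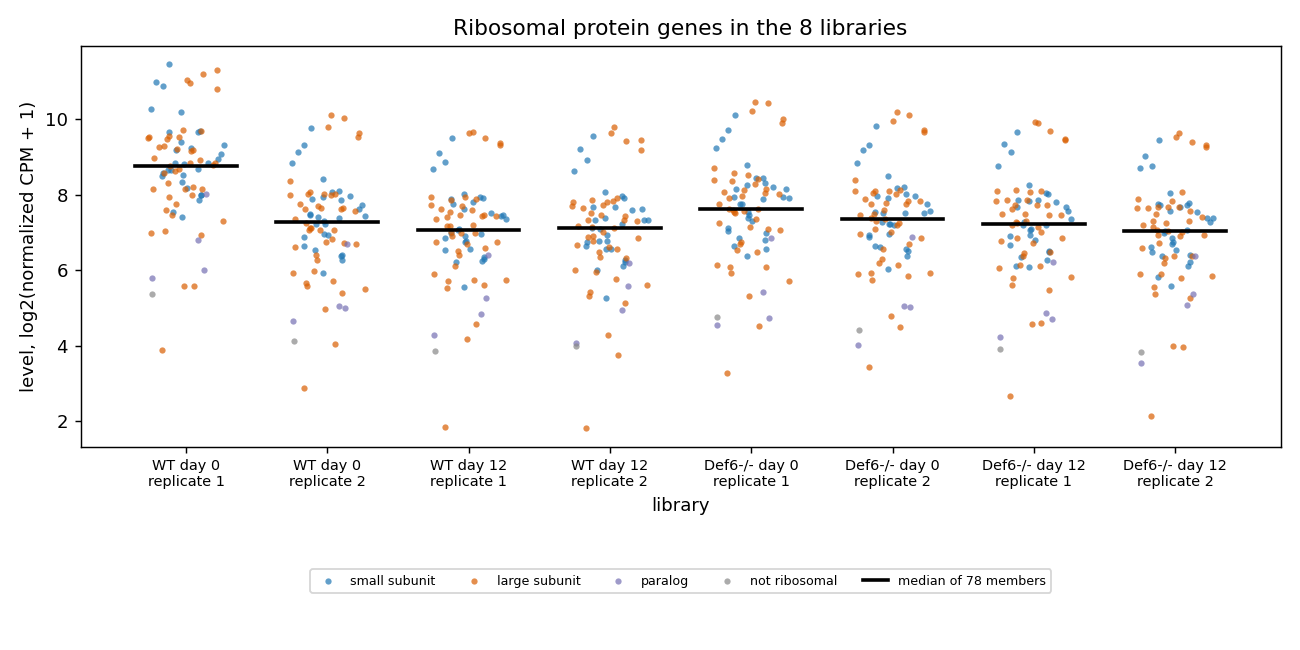
Level of each of the 78 members tested, as log2(normalized CPM + 1), in each of the 8 libraries, with points colored by subunit and a bar at the median. The bar of WT day 0 replicate 1 lies at 8.77, and those of the other 7 libraries lie between 7.04 and 7.62.

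**Figure D3:**
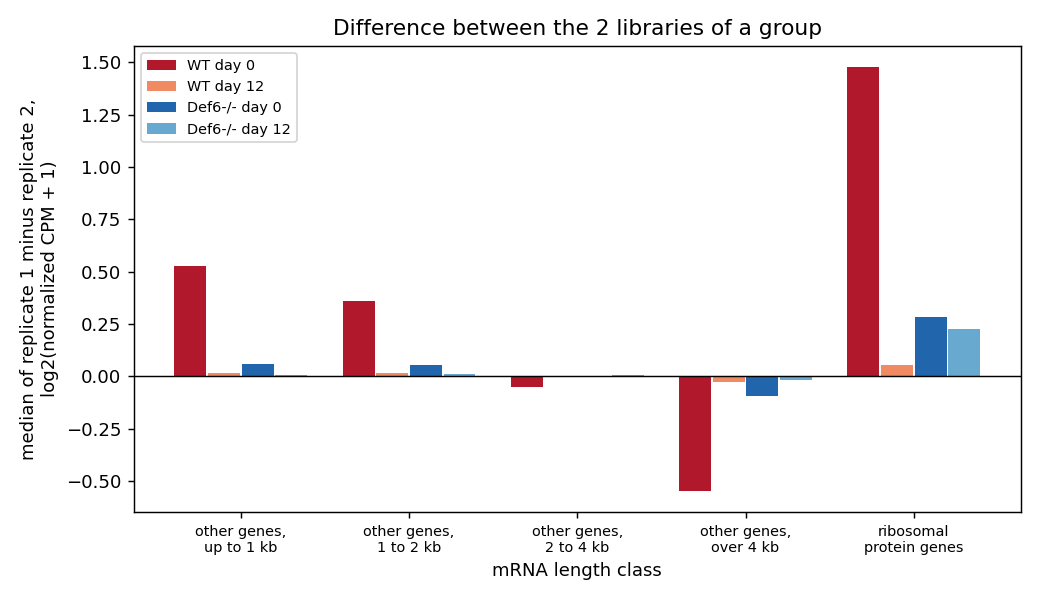
Median difference between the 2 libraries of each group (replicate 1 minus replicate 2, log2(normalized CPM + 1)) for other genes in 4 classes of mRNA length and for the 78 ribosomal protein genes; bars have no error because each is a median over genes. In WT day 0 the bars fall from 0.53 for short mRNAs to -0.55 for long ones and reach 1.48 for the ribosomal protein genes.

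The comparison of day 12 with day 0 asks how the ribosomal protein genes change while the cells differentiate. In WT cells the median member was lower at day 12, by -0.93 log2, while the median of all genes tested was -0.00. By limma, 2 members fell with an adjusted p under 0.05, against 5.64% of all genes that fell by this rule, and no member rose, against 12.7% of all genes. By an unadjusted p under 0.05 and more than 1.2-fold, 45 of the 78 were lower and 0 were higher, against 13.7% and 18.9% of all genes. The quasi-likelihood test of edgeR called 14 lower, DESeq2 called 56 lower, and neither called any higher. The shares of all genes that these 2 tests called are not given here, so 14 and 56 are not set against a background.

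Rplp0, the stalk base to which Rplp1 and Rplp2 bind, fell by 1.14 log2 (SE 0.34, adjusted p = 0.0472, limma). Its levels in WT were 2334 and 1039 normalized CPM at day 0, and 719 and 689 at day 12. Both day 0 libraries stood above both day 12 libraries, and the means were 1687 ± 915 at day 0 and 704 ± 21.7 at day 12 (SD, n = 2).

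Rpl21, a large subunit protein, fell by 1.56 log2 (SE 0.39, adjusted p = 0.0258, limma). It had 13.8 and 6.36 normalized CPM at day 0, and 2.58 and 2.51 at day 12. These are few reads, 141 over the 8 libraries, from a gene that shares stretches with 82 others. Its level of 6.16 CPM per kb lies far under the median of 194, so the fall was not read as a change of the mRNA.

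Without WT day 0 replicate 1, the fall in WT shrank to a median of -0.23, with 60 members lower and 18 higher in value. In that fit 3 members fell by adjusted p, against 9.58% of all genes: Rplp0 by 0.56 (adjusted p = 0.0330, limma), Rpl7 by 0.50 (adjusted p = 0.0420) and Rpl18 by 0.49 (adjusted p = 0.0436). Rpl21 did not pass there (difference -1.05, adjusted p = 0.0846). By the unadjusted rule 1 member was higher, against 20.9% of all genes. It was Rpl41, the smallest protein of the ribosome, with a difference of 0.34 (SE 0.15), where the fit of all libraries gave -0.83.

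In Def6-/- cells the median member was lower at day 12 by -0.40 log2 and 76 of the 78 members were lower in value. The fit of all 8 libraries called none of them by adjusted p (limma, edgeR and DESeq2 alike), against 4.79% of all genes lower and 12% higher. By the unadjusted rule it called 2 members lower, Rpl21 and Rpl29, against 11.5% of all genes. The limits given for Rpl21 hold here too, and Rpl29 shares stretches with 84 other genes. The fit shares 1 estimate of the spread between groups, and that estimate holds the gap between the WT day 0 libraries. Leaving out WT day 0 replicate 1 thus changes the spread and not the Def6-/- libraries compared. It was left out because of its gap in these same members. The adjusted p-values without it follow that choice and are not independent of it.

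Without that library the median was -0.40 again, 39 members fell by adjusted p, against 14.9% of all genes, and no member rose, against 19.7% of all genes. With only the 4 Def6-/- libraries in the fit, 27 members fell, against 13.4% of all genes. In the fit without the library, Rplp0 fell by 0.71 (SE 0.14, adjusted p = 0.00205, limma), Rps2 by 0.69 (SE 0.13, adjusted p = 0.00195), Rpl18 by 0.59 (SE 0.13, adjusted p = 0.00478) and Rpl4 by 0.55 (SE 0.14, adjusted p = 0.00876). Both subunits took part: 16 of 30 small subunit genes and 21 of 43 large subunit genes fell, all 3 stalk genes among the latter.

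Rpl4, which lines the exit tunnel and had the most reads of all members, shows the step in single libraries. It had 1405 and 1165 normalized CPM at day 0 in Def6-/- cells and 962 and 795 at day 12. The WT values were 1980 and 1109 at day 0, against 815 and 889 at day 12. In both genotypes every day 0 library was above every day 12 library. Rps6, the substrate of S6 kinase in mTOR signaling, had 110 and 93.0 normalized CPM at day 0 and 76.4 and 68.3 at day 12 in Def6-/- cells. It fell there by 0.48 without the doubted library (SE 0.14, adjusted p = 0.0183, limma).

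Among other members with known roles, Rpsa passed in the same fit and the rest did not. In Def6-/- cells without WT day 0 replicate 1, Rps19, the gene most often mutated in Diamond-Blackfan anemia, differed by -0.42 (adjusted p = 0.0651, limma) and Rps27a, made as a fusion with ubiquitin, by -0.38 (adjusted p = 0.153). Rpl5 (-0.26, adjusted p = 0.180) and Rpl11 (-0.18, adjusted p = 0.319), which bind 5S RNA and Mdm2, did not pass. Neither did Rpl38, whose loss alters the skeleton of Tail-short mice (-0.26, adjusted p = 0.286), Rpl22 (-0.24, adjusted p = 0.147), Rpl10 (-0.21, adjusted p = 0.332) and Rps14 (-0.15, adjusted p = 0.457). Rpsa, which also serves as a laminin receptor, fell by 0.52 (adjusted p = 0.0178).

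A count of libraries that do not overlap needs no estimate of the spread. In WT, 56 of 78 members had both day 0 libraries above both day 12 libraries, against 26.7% of all genes, and no member had them below, against 29.3%. In Def6-/- cells these were 57 members against 32.5% of all genes, and 0 against 35.2%. The 2 genotypes shared 50 such members, 6 were found in WT alone, 7 in Def6-/- alone, and 15 in neither, while 19.6% of all genes were lower in both. Every member was lower in WT day 0 replicate 2 than in replicate 1, so the 56 of WT are set by replicate 2 and cannot change when replicate 1 is left out. With replicate 2 alone at day 0, 41.9% of all genes were lower, and 13 members were higher, against 43.4% of all genes. Rps21, Rpl36, Rpl41 and Rps4l were among the 13.

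**Figure D4:**
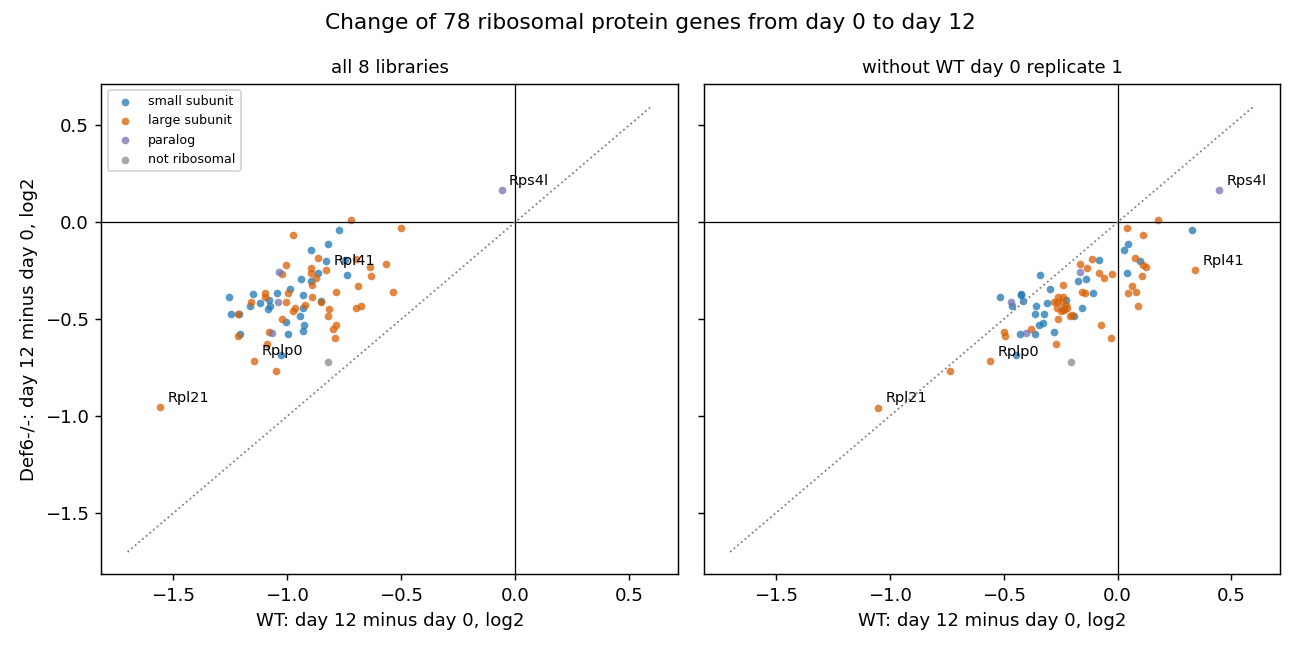
Difference between day 12 and day 0 (log2 of normalized CPM + 1) of each of the 78 members in WT (x axis) and Def6-/- cells (y axis), in the fit of all 8 libraries (left) and without WT day 0 replicate 1 (right); the dotted line marks equal change. On the left the points center on -0.93 in WT and -0.40 in Def6-/- cells, and on the right on -0.23 and -0.40, with Rpl21 lowest on both axes.

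Most pairs of members had similar courses over the libraries. Over the 8 libraries, the median correlation of a pair of members was 0.96 and the lowest 0.003. Over the 7 without WT day 0 replicate 1 these were 0.82 and -0.95. These are descriptions over libraries that share depth, length bias and groups. The same values for other genes are not given, so the likeness is not shown to be particular to the members. Over the 7 libraries, Rps3 followed the median member most closely (r = 0.997, n = 7). The least like it was the paralog Rps4l (r = -0.75), followed by Rpl36 (0.02), Rps21 (0.12) and Rps2 (0.12).

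The paralogs did not share 1 pattern. Rps27l, a copy of Rps27 induced by p53, had 260 and 103 normalized CPM in WT at day 0, 84.1 and 72.0 in WT at day 12, 115 and 117 in Def6-/- at day 0, and 73.5 and 82.0 in Def6-/- at day 12. Day 12 was under day 0 in every library of both genotypes, and in the fit without WT day 0 replicate 1 it fell by 0.57 in Def6-/- cells (SE 0.13, adjusted p = 0.00535, limma). Rps4l had 62.7 and 30.7 normalized CPM in WT at day 0 and 37.6 and 47.3 at day 12, and in Def6-/- cells 25.6 and 31.3 at day 0 and 25.0 and 40.6 at day 12. Its libraries of the 2 days overlapped in both genotypes. Rpl36al had 28.9 ± 1.84 in WT and 30.6 ± 3.21 in Def6-/- at day 12 (SD, n = 2). Rpl39l had 17.1 ± 1.74 and 14.2 ± 4.94. In WT both day 0 libraries were higher, at 110 and 32.5 for Rpl36al and 54.5 and 24.0 for Rpl39l. In Def6-/- cells the days overlapped for both genes, with day 0 values of 41.8 and 32.0 for Rpl36al and 22.6 and 15.3 for Rpl39l. Rps19bp1 had 13.2 to 15.1 normalized CPM at day 12 and 16.6 to 40.3 at day 0, and fell in Def6-/- cells without WT day 0 replicate 1 by 0.72 (adjusted p = 0.0284, limma).

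The rest of the translation machinery gave a background for these falls. By adjusted p, 5.64% of all genes fell and 12.7% rose in WT. In Def6-/- cells 4.79% fell and 12% rose. The shares for Def6-/- cells without WT day 0 replicate 1 are given in the paragraphs above. Counts in WT without that library, here and for the markers below, compare a single day 0 library, assumed to vary like the other groups. They have no share of all genes beside them and were not read as results. Of 39 genes of ribosome biogenesis, such as Ncl and Fbl, 18 fell in WT and 12 in Def6-/- cells by adjusted p, and none rose. Without WT day 0 replicate 1 these counts were 12 and 26. Their medians were -0.85 in WT (-0.51 without WT day 0 replicate 1) and -0.69 in Def6-/-. Of 16 translation factors and related TOP mRNAs, of which Eef2 and Vim had the highest levels, 3 fell in WT and 2 in Def6-/- cells, and the medians were -0.72 (-0.31 without the library) and -0.35. Without the library 4 fell in WT and 6 in Def6-/- cells. The 77 mitochondrial ribosomal proteins had medians of -0.51 (-0.06 without the library) and -0.14, with 3 lower in WT and 1 higher in Def6-/-. Both counts lie under the shares of all genes. Without the library 1 was lower and 1 higher in WT, and 6 were lower and 2 higher in Def6-/- cells. The 19 genes of mTOR signaling and initiation factor kinases had medians of -0.08 (-0.25 without the library) and -0.25, with 2 higher and 3 lower in WT and 1 higher in Def6-/-. Without the library 2 were higher and 6 lower in WT, and 2 were higher and 7 lower in Def6-/- cells. Of 6 further ribosomal proteins or paralogs that the symbol rule does not take in, led in level by Gnb2l1 and Fau, 5 were tested, none passed, and their medians were -0.49 (-0.02 without the library) and -0.29. Without the library 1 of them was higher in each genotype and 2 were lower in Def6-/- cells.

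Markers of other cells changed between the same days. By adjusted p, 12.7% of all genes rose and 5.64% fell in WT, and in Def6-/- cells 12% rose and 4.79% fell. The 15 macrophage markers summed to between 207 and 449 normalized CPM at day 0 and between 3306 and 6475 at day 12, and 15 rose in WT and 14 in Def6-/- cells by adjusted p. The 12 osteoblast markers had medians of 1.94 and 1.98, with 7 and 8 that rose. The 9 adipocyte markers summed to between 38.4 and 47.4 at day 0 and between 314 and 446 at day 12. Of the 7 that were tested, 5 rose in WT and 7 in Def6-/- cells. Proliferation markers summed to between 358 and 798 at day 0 and between 303 and 396 at day 12, with 2 and 3 of 10 lower by adjusted p, or 6 and 4 without WT day 0 replicate 1. The 6 endothelial markers summed to between 0.789 and 13.1. The part of these cells in the fall of the ribosomal protein genes was not tested.

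The comparison of genotypes asks whether loss of Def6 alters the genes at either day. At day 0 the median member was lower in Def6-/- cells by -0.51 log2 with all 8 libraries, and all 78 were lower in value. Without WT day 0 replicate 1 the direction turned: the median was 0.25 and 75 members were higher in value. With all libraries, Rps2 and Rpl39l were called lower (unadjusted p under 0.05 and more than 1.2-fold, limma), against 1.31% of all genes, and no member was called higher, against 0.988% of all genes. Without the library, 9 were called higher, against 2.27% of all genes, and Rps2 alone was called lower, against 2.17%. The 9 were Rplp2 of the stalk and Rpl7a, Rpl10a, Rpl23, Rpl27, Rpl27a, Rpl28, Rpl36a and Rpl41, all of the large subunit. None of them had an adjusted p under 0.05. The libraries did not overlap for 2 lower members, Rps2 and Rpl39l, against 11.7% of all genes, and for 0 higher ones, against 10.9%. Without the library the 2 lower members are the same by construction, against 32.2% of all genes, and 61 members were higher, against 33.5%. In this fit WT day 0 is a single library, assumed to vary like the other groups.

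At day 12, where no library stood apart, the median member differed by 0.06 log2 between genotypes. Rps2 was the only member called lower, against 0.591% of all genes, and no member was called higher, against 0.81% of all genes, by limma, edgeR and DESeq2 alike. The libraries did not overlap for 13 members that were higher in Def6-/- cells, against 16.8% of all genes, and for 2 that were lower, Rps2 and Rpl37a, against 15.9%. The 13 of 78 members lie near the share of all genes. The abundant members differed little: Rpl4 by 0.04 (SE 0.28), Rps3 by 0.03 (SE 0.44), Rplp0 by 0.09 (SE 0.34) and Rpl13a by 0.09 (SE 0.36).

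The interaction sets the day effect in Def6-/- cells against that in WT cells. With all libraries the interaction had a median of 0.56 and no member was called in either direction by limma, edgeR or DESeq2 at an unadjusted p under 0.05, against 0.705% of all genes higher and 0.421% lower. Without WT day 0 replicate 1 the median was -0.18, and Rpl10a, Rpl28 and Rpl41 were called lower, against 1.89% of all genes. Their differences were -0.52 for Rpl10a (SE 0.21) and -0.59 for Rpl41 (SE 0.20). The comparisons of days and of genotypes share libraries with this test.

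Rps2, which sits at the entry of the mRNA channel of the small subunit, was the exception to the common level of its group. Its level was 401 and 180 normalized CPM in WT at day 0, and 125 and 138 in WT at day 12. The Def6-/- libraries gave 99.4 and 99.8 on day 0, then 68.1 and 55.5 on day 12. All 4 Def6-/- libraries stood under all 4 WT libraries. The means were 290 ± 156 in WT and 99.6 ± 0.33 in Def6-/- at day 0, and 132 ± 9.23 and 61.8 ± 8.95 at day 12 (SD, n = 2).

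Rps2 was lower in Def6-/- cells by 1.42 log2 at day 0 (SE 0.33, unadjusted p = 0.00191, adjusted p = 0.908, limma) and by 1.08 at day 12 (SE 0.33, unadjusted p = 0.00914, with no adjusted p under 0.05). Without WT day 0 replicate 1 it was lower by 0.84 at day 0 (adjusted p = 0.559) and by 1.08 at day 12 (SE 0.13, adjusted p = 0.0174, limma). Of all genes, 0.0161% were lower by adjusted p in this last comparison, which are Rps2 and Def6. At day 0 this fit leaves WT a single library. The day 12 comparison does not use the library left out, so its SE shrank from 0.33 to 0.13 through the shared spread alone. That library was left out because of its gap in these same members. The adjusted p-values without it, here and below, follow that choice. The interaction of genotype and day was not called for Rps2 (0.34, SE 0.46).

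Set against the median member of its own library, Rps2 was between -0.12 and 0.22 log2 in the 4 WT libraries, WT day 0 replicate 1 included at -0.12. In the Def6-/- libraries it was -0.97 and -0.71 at day 0, and -1.12 and -1.22 at day 12. On this scale, without WT day 0 replicate 1, it was lower in Def6-/- cells by -1.06 at day 0 and -1.13 at day 12 (adjusted p = 0.0459 at day 12, limma). The other 77 members lay between -0.55 (Rpl39l) and 0.39 (Rpl36a) at day 0, and between -0.44 (Rps4l) and 0.55 (Rpl21) at day 12.

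Rps2 lies on chromosome 17, 3.50 Mb from Def6. The 5 other members tested on that chromosome are Rps10, Rpl10a, Rps28, Rps18 and Rpl36, of which Rpl10a lies 0.112 Mb from Def6 and Rps10 0.585 Mb. Relative to the median member they differed by -0.12 to 0.28 at day 0 and by -0.08 to 0.15 at day 12. Rps10 had 119 and 108 normalized CPM in WT at day 12 and 133 and 114 in Def6-/-, and Rpl10a had 107 and 100 and then 108 and 95.2. At day 12 the genotypes of these 2 genes overlapped, as did those of Rps28 and Rps18, unlike those of Rps2. Those of Rpl36 did not overlap, with 52.8 and 48.1 in WT and 55.8 and 56.3 in Def6-/-. At day 0 the genotypes of Rpl10a, Rps28 and Rpl36 overlapped only through WT day 0 replicate 1, as for most members. Of the stretches of 50 bases in the Rps2 mRNA, 23.2% were unique, and of those of 100 bases 37.7%. Most stretches of either length thus also occur in other annotated genes. Reads aligned more than once were listed apart from the reads on genes. The part of shared sequence in the difference was not tested.

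**Figure D5:**
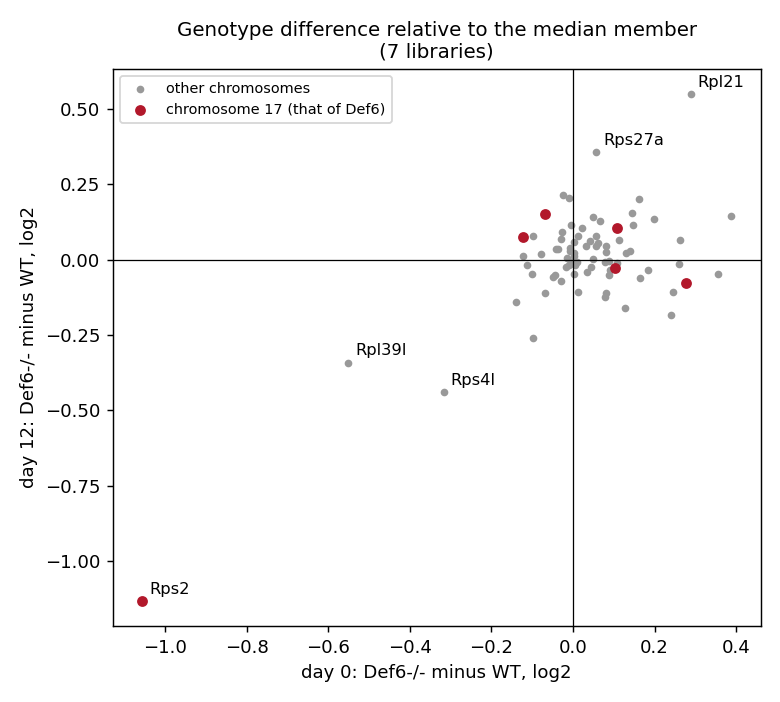
Genotype difference (Def6-/- minus WT, log2) at day 0 (x axis) and day 12 (y axis) of the 78 members, on values scaled so that the median member is equal in all libraries, without WT day 0 replicate 1; members on chromosome 17, which carries Def6, are red. Rps2 lies at -1.06 and -1.13, and the other members lie between -0.55 and 0.55 on both axes.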

How the data were processed

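Per the labels and the study's methods, poly-A RNA was selected, sequenced on an Illumina HiSeq, trimmed with fastp, aligned to mm10 with HISAT2 and counted per gene with HTSeq. The authors deposited CPM values made with edgeR, relative to all reads including those outside genes (64.7% to 71.2% of a library). Versions, annotation and strand setting are not given in the sources used here. Dividing by the value of 1 read gave whole numbers, within 0.05, for 99.96% of 114821 positive values. The 47 others lay in 9 genes, none a member. CPM were rescaled to reads on genes with TMM factors and tested with limma 3.58.1 (lmFit, eBayes with trend, two-sided) on log2(CPM + 1), as 4 group means over 8 libraries, with Benjamini-Hochberg adjustment over 12348 genes. Fold changes are on this scale, which understates low genes. Days were called at an adjusted p under 0.05, genotypes at an unadjusted p under 0.05 and more than 1.2-fold. edgeR 4.0.16 and DESeq2 1.42.0 (R 4.3.3) were run on the whole reads. The limma step was run on simulated counts with known fold changes in Def6-/- day 12. No simulated library was made to stand apart like WT day 0 replicate 1, so that run does not cover this setting. The exact permutation test of 2 against 2 libraries cannot go below p = 0.333 and was not used. With 2 libraries per group, p-values measure only the spread between these libraries.

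Members, lists and tests were chosen with earlier results of these data known. Members named are the 5 highest and 5 lowest in level, the 3 smallest limma p in each direction of each comparison, paralogs, and those with known roles. Rpl7, Rpl8, Rpl18, Rps21, Rpl36a, Rpl41, Rpl7a, Rpl28 and the other members of short calls were named after their values were seen. Positions, transcripts and coding sequence are from GENCODE M21, with 83 of 84 members matched, and promoters from RefSeq.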

Additional observations from a re-analysis of the deposited data

How the results depend on the processing

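The counts in this section are of members only and have no share of all genes beside them. The count of members lower at day 12 in WT (2) depended most on the processing. It was 10 without TMM factors, 17 with CPM as deposited, 1 with a pseudocount of 0.1, 1 with no filter, 0 with only the groups compared, 14 with edgeR, 56 with DESeq2 and 0 on values scaled to the median member, an alternative chosen after seeing the data. Leaving out each library gave 0 to 77. In Def6-/- cells (0 lower) only the groups compared gave 27, and leaving out each library 0 to 39. At day 0, members lower in Def6-/- cells (2) were 1 with CPM as deposited, 1 with a pseudocount of 0.1, 1 with only the groups compared, 3 with edgeR, 23 with DESeq2, 0 on scaled values, 2 with no filter (1 of them a member that the filter leaves out) and 1 to 76 without each library. Members higher at day 0 were 0 to 9, and members lower at day 12 (1) were 0 to 1, Rps2 missing the threshold without WT day 12 replicate 2 (-1.01) or Def6-/- day 12 replicate 2 (-0.94). The interaction called 1 member higher with no filter, 0 to 74 higher and 0 to 3 lower without each library. The counts of 77, 76 and 74 came without WT day 0 replicate 2, which leaves WT day 0 to replicate 1 alone. The median difference ranged without each library from -1.69 to -0.23 for days in WT, -0.54 to -0.23 for days in Def6-/-, -1.22 to 0.25 for genotypes at day 0, -0.06 to 0.17 at day 12 and -0.18 to 1.26 for the interaction.

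The members' share of reads in percent of all reads was 1.34, 0.608, 0.517, 0.405, 0.762, 0.651, 0.553 and 0.451, in the order WT day 0, WT day 12, Def6-/- day 0 and Def6-/- day 12. With the replicate block, 22 members were lower at day 12 in WT and 0 in Def6-/- cells. Libraries of the same number had correlated deviations of 0.00 to 0.33 over all genes, and nothing in the labels ties them to a shared litter or day. The study used WT littermates as controls, so a pairing of libraries by litter is possible but is not stated. DESeq2 size factors in place of TMM moved no count by more than 1.5 times. The causes of these shifts were not tested, apart from the libraries that an alternative leaves out.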
